A study of Rattus norvegicus with 8 samples.

Results

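The 8 genes described here encode the Fos and Jun family transcription factors that form activator protein 1 (AP-1), together with their relative Atf3. They are Fos, Fosb, Fosl1, Fosl2, Jun, Junb, Jund and Atf3, and they were found by their gene names in the annotation of the arrays. They were represented by 9 of the 41012 probes on each array, 1 per gene except Jund with 2. The RNA came from the medial thalamus of 8 male Sprague-Dawley rats of 277 g, all under urethane anaesthesia and all fitted with a cuff that closes the trachea when inflated. In the occlusion group of 4 rats, the trachea was closed for 2 to 4 breaths at a time with at least 15 free breaths between closures, for 10 min in all, and the brain was taken straight afterwards. In the control group of 4 rats the cuff stayed deflated, and the brain was taken 70 min after the surgical preparation. For the occluded rats no such interval is stated, so time under anaesthesia and treatment cannot be told apart.

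AP-1 is a pair of proteins joined through their leucine zippers, in most cases 1 Fos protein and 1 Jun protein, and it binds short DNA elements near many genes. Fos proteins cannot pair with each other, whereas Jun proteins can pair with themselves, with Fos proteins or with Atf3. Several of these genes are immediate early genes: their mRNA rises quickly and briefly after neurons fire or cells are stressed, which is why Fos is widely used as a marker of recent neuronal activity. The comparison therefore asks whether these mRNAs in the thalamus differed between occluded and control rats. It cannot separate the obstructed breaths from time under anaesthesia. Brains of occluded rats were taken at the end of the 10 min series, so a later change was not measured.

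Every array compared the Cy5-labelled RNA of 1 rat with Cy3-labelled RNA pooled from all 8. Values are normalised log2 ratios of animal to pool. The pool holds these same 8 rats, yet their mean linear ratio was 1.21 for Fosb, 1.16 for Fosl1 and 0.794 for Junb. It was 0.828 for the Jund probe A_43_P15517. For such probes 0 is not the level of the pool, so values are compared between rats rather than with 0. The cause of the offset was not tested. Each of the 2 slides held 2 occlusion and 2 control animals, and the median Cy5 signal over background was 3.65 to 4.67 per array. In rn3, the build of the array annotation, the probes lie at chr6:109564555-109564614 (Fos), chr1:78746783-78746842 (Fosb), chr1:208252280-208252339 (Fosl1), chr5:115363990-115364049 (Jun) and chr13:107380795-107380853 (Atf3). That of Fosl2 has no position there, those of Junb and Jund are given with their values, and exons are not annotated. All 9 probes were well above background in Cy5 on 8 of 8 arrays, and none had a saturated spot. Fosl1 was the dimmest relative to its background, at 2.17 to 2.69 times, and in Cy3 it was well above background on 2 of 8 arrays, so its ratio is the least certain. One control rat, control 3, stood apart from the others in region markers. Its mean over 11 tested thalamic relay neuron markers was -1.74, against -0.31 to 0.15 in the other 7 rats, and it was the lowest rat for 10 of the 11. Slc17a6, the glutamate transporter of thalamic neurons, was at -2.99 in control 3 and at -0.02 to 0.25 in the others, although it remained well above background on all 8 arrays. Its mean over 13 cortical markers was 1.45, against -0.97 to -0.68, with Neurod2, a transcription factor of cortical neurons, at 2.60 against -2.06 to -1.39. Its mean over 12 markers of meninges and fibroblasts was 1.03, against -0.60 to 0.12. The differences of the members are therefore given with and without control 3.

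None of the 9 probes passed an adjusted p of 0.05 between occlusion and control (limma, Benjamini-Hochberg over all probes). Over all 31690 probes tested, 0% passed, and 975 probes, or 3.08%, had an unadjusted p under 0.05. None of the 9 probes was among those 975. Without control 3 the same count over all probes was 1042, or 3.29%, and again none of the 9 probes was among them. Of the 9 probes, 4 had a lower mean in occluded rats, against 49.4% of all probes, and 5 of 9 did so without control 3, against 50.1%. The groups overlapped for each of the 9 probes, and 2.45% of all probes had groups that did not overlap. Junb, with the smallest p of the 9, had a lower mean in the occluded rats, and Fos, Fosl2 and Atf3 had differences whose sign turned when control 3 was left out. The adjusted p of the 9 probes lay between 0.976 and 0.9997 with all animals (limma), and was 0.9995 for each without control 3.

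**Figure D1:**
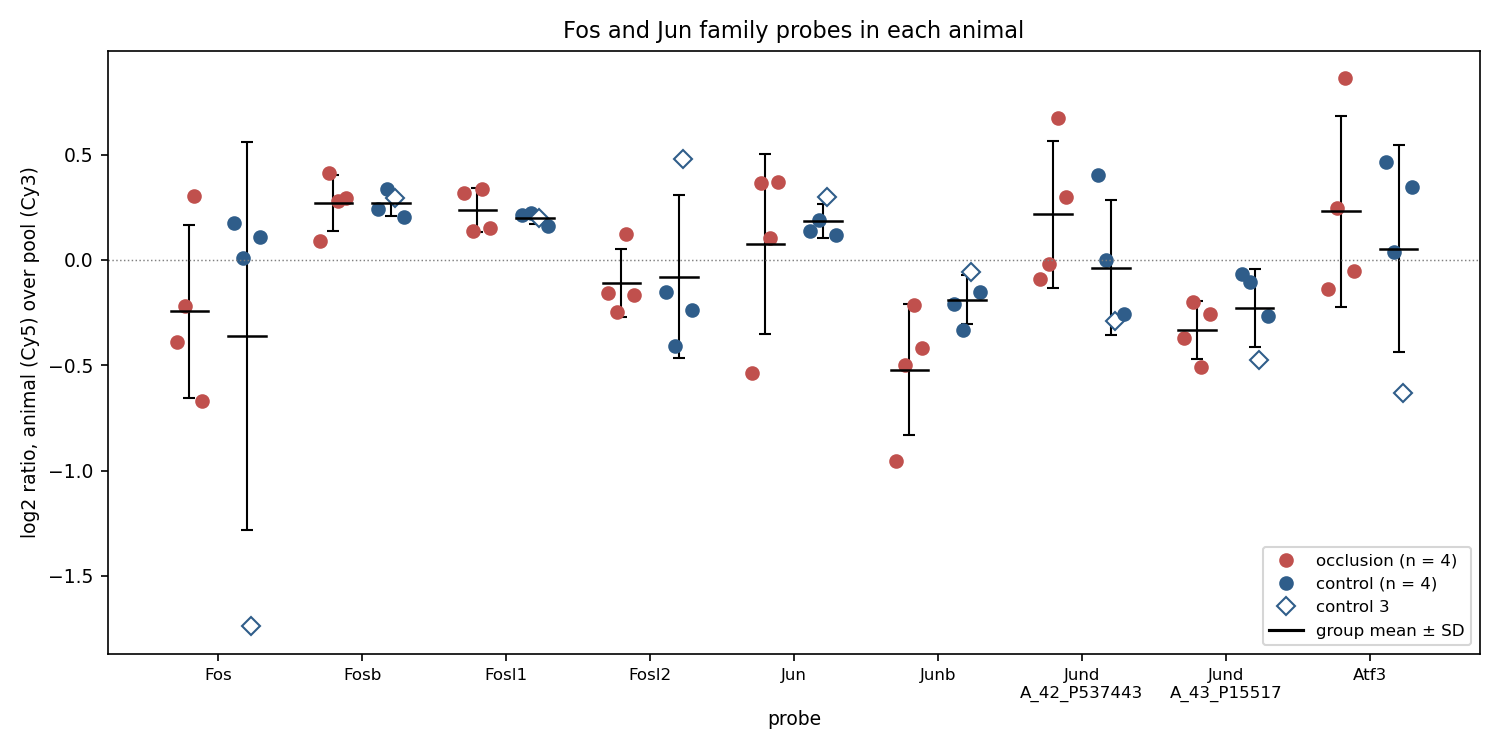
The log2 ratio of each animal to the pool (vertical axis) is plotted for the 9 probes (horizontal axis), with occlusion on the left and control on the right of each pair, and horizontal lines and bars for the group mean ± SD (n = 4). The groups overlap for every probe, and control 3 (open diamond) lies far below the other 7 rats for Fos at -1.74. Junb lies below 0 in all 8 rats, which together make up the pool, so 0 is not its pool level.

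Fos was widely spread in both groups. Occlusion 1 to 4 had log2 ratios of -0.39, -0.22, 0.31 and -0.67, and control 1 to 4 of 0.18, 0.01, -1.74 and 0.11. Control 3 was the lowest of all 8 rats, and the other 3 controls lay close together, above 3 of the 4 occluded rats and below occlusion 3. On the raw scale the Fos spot of control 3 gave a Cy5 signal of 850 over a background of 58.0, against 1397 to 3519 in the other 7 rats, so the low ratio was not a reading at background. The occluded rats averaged -0.24 ± 0.41 and the controls -0.36 ± 0.92 (SD, n = 4 each), a difference of 0.12 (SE 0.41; adjusted p = 0.988, limma). Without control 3 the control mean was 0.10 ± 0.09 (SD, n = 3) and the difference was -0.34, with a 95% interval of -0.78 to 0.10 (adjusted p = 0.9995, limma). The slides gave opposite signs, with 0.51 on slide 1, which held control 3, and -0.28 on slide 2. Leaving out occlusion 3 also turned the sign, to -0.06. Slc17a6 and the relay marker mean were lowest in the same animal as Fos, but the relay mean was 0.10 in occlusion 4, second lowest for Fos. The mean over 7 habenula markers was -1.61 in control 3 and -1.08 in occlusion 4, against -0.12 to 0.60 in the other rats. The part of either marker list in the Fos values was not tested. In tissue samples such as these, fewer cells of a type and less RNA per cell cannot be told apart.

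Fosb, which also gives a truncated protein form that builds up in neurons under repeated stimulation, showed the smallest difference of the 9 probes. It was at 0.09, 0.41, 0.28 and 0.29 in the occluded rats and at 0.24, 0.34, 0.29 and 0.20 in the controls. All 8 rats lay within a 1.25-fold range, with the lowest and the highest both in the occlusion group. The means of 0.27 ± 0.13 and 0.27 ± 0.06 (SD, n = 4 each) differed by 0.0002, with a 95% interval of -0.19 to 0.19 (adjusted p = 0.9997, limma), and by 0.0083 without control 3. The full and truncated forms were not measured apart.

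Fosl1 and Fosl2 encode Fra-1 and Fra-2, Fos proteins that lack the strong activation domain of Fos itself. Fosl1 was at 0.32, 0.14, 0.34 and 0.15 in occluded rats and at 0.22, 0.22, 0.20 and 0.16 in controls. The occluded rats fell into a higher and a lower pair on either side of all 4 controls, but the whole range was 1.15-fold and the signal was near background. The difference was 0.04 both with all rats (SE 0.07; adjusted p = 0.978, limma) and without control 3. It was -0.08, with groups that did not overlap and occlusion 3 the lowest rat at 0.03, when the background model was fitted on all spots. Fosl2 was at -0.16, -0.25, 0.12 and -0.16 in occluded rats and at -0.15, -0.41, 0.48 and -0.24 in controls. Control 3 was the highest rat and occlusion 3 the second, and the other 6 lay between -0.41 and -0.15. The difference was -0.03 (SE 0.18; adjusted p = 0.992, limma) with all rats and 0.15 (SE 0.11) without control 3, and it was -0.32 on slide 1 and 0.26 on slide 2. Leaving out occlusion 2 also turned it, to 0.01. The markers of meninges and fibroblasts were highest in the same 2 rats, at 1.03 in control 3 and 0.12 in occlusion 3, and their part in the Fosl2 values was not tested.

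**Figure D2:**
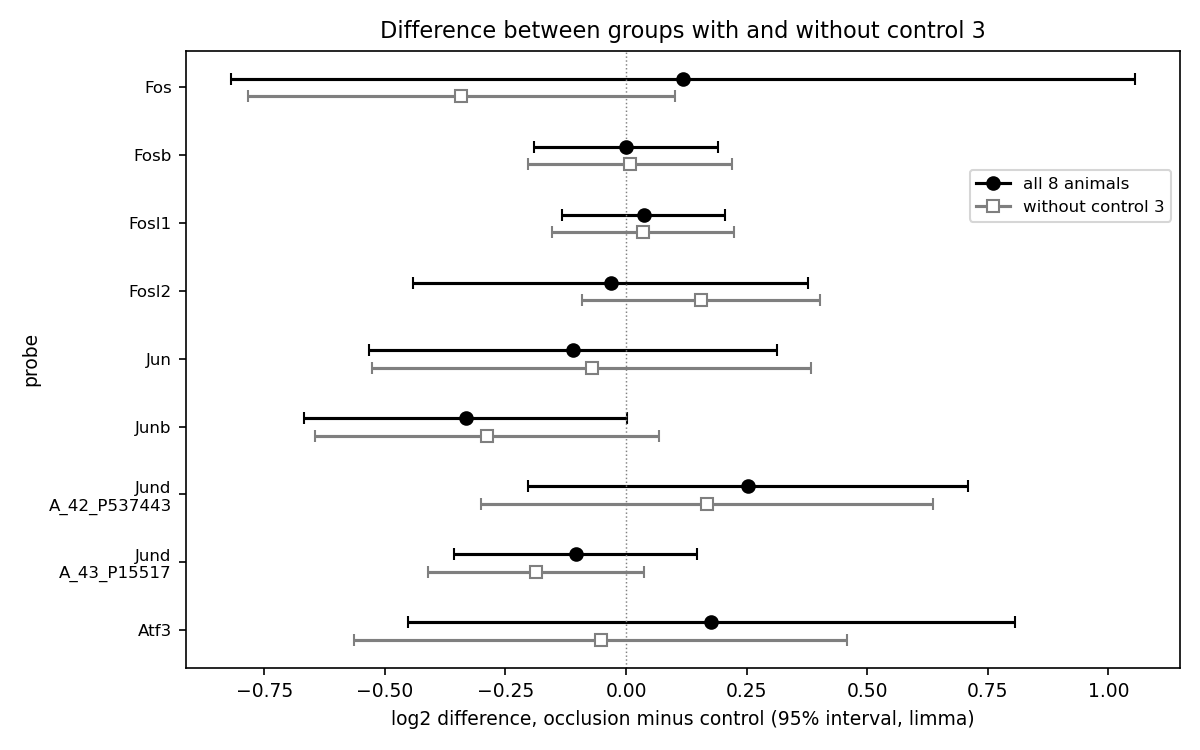
Points give the log2 difference of occlusion minus control for each probe and bars its 95% interval from limma, with all 8 animals (filled circles) and without control 3 (open squares). Every interval includes 0, that of Junb ends at 0.003, and the differences of Fos, Fosl2 and Atf3 change sign without control 3.

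Jun, the founding partner of Fos and a target of the stress kinase JNK, had a probe printed 10 times on each array, against 1 spot for each other member probe. The spread between spots could thus be measured for Jun alone. Its ratio in occlusion 1 to 4 was -0.54, 0.37, 0.11 and 0.37, and the controls, in order, had 0.14, 0.19, 0.30 and 0.12. The 4 controls lay close together, whereas occlusion 1 was the lowest rat, occlusion 2 and 4 the highest, and occlusion 3 just below the controls. Of the 80 spots, 3 were left out as outliers, and the remaining spots of one array had a median SD of 0.06, against 0.31 between animals within a group. The spots of occlusion 1 ran from -0.64 to -0.42 and none overlapped a spot of another rat, the lowest of which was at -0.06. The low ratio of this rat was thus present on each of its 10 spots, which share 1 RNA sample and 1 labelling reaction. The group means were 0.08 ± 0.43 and 0.19 ± 0.08 (SD, n = 4 each) and differed by -0.11, with a 95% interval of -0.53 to 0.31 (adjusted p = 0.976, limma). The difference was -0.07 without control 3, and leaving out occlusion 1 turned it to 0.10. Oligodendrocyte markers were higher in occlusion 1 than in the other rats, with a list mean of 0.13 against -0.42 to -0.10 and 5 of 8 markers at their highest there. Occlusion 1 was also the lowest rat for the means of cortex (-0.97, next -0.92), meninges and fibroblasts (-0.60, next -0.48) and endothelium (-0.21, next -0.12). The part of any of these lists in the Jun value was not tested.

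**Figure D3:**
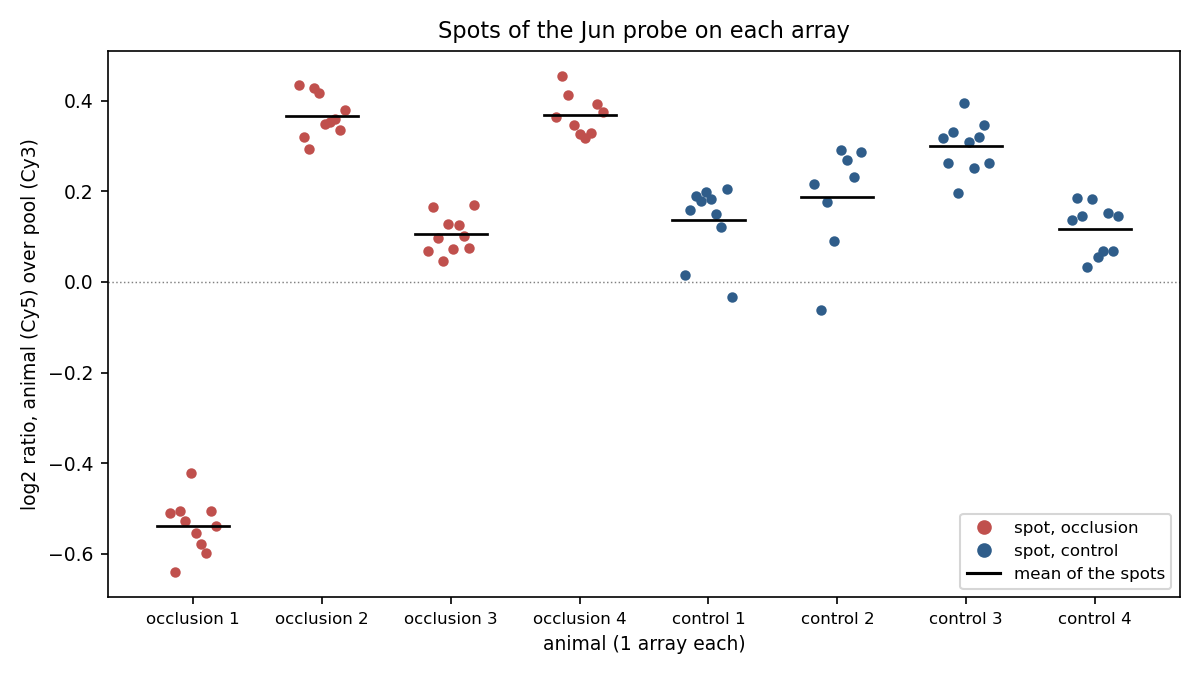
Each point is 1 spot of the Jun probe, as the log2 ratio of animal to pool (vertical axis), for the 8 arrays (horizontal axis), and lines mark the mean of the 8 to 10 spots used. The spots of occlusion 1 lie at -0.64 to -0.42, below the spots of all other arrays.

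Junb, a Jun protein that activates less strongly than Jun and is itself an immediate early gene, came closest to a difference. Its probe lies at chr19:24837607-24837666 on the plus strand in rn3. It was at -0.95, -0.50, -0.21 and -0.42 in occlusion 1 to 4 and at -0.21, -0.33, -0.06 and -0.15 in control 1 to 4. Occlusion 1, 2 and 4 lay below all 4 controls, and occlusion 3 lay within them. The mean was -0.52 ± 0.31 in occlusion and -0.19 ± 0.12 in control (SD, n = 4 each), a difference of -0.33 (SE 0.15), or 0.794 of the control level. Its 95% interval was -0.67 to 0.003, the unadjusted p was 0.0516 and the adjusted p 0.976 (limma), and the exact two-sided permutation test gave p = 0.0571, where 4 rats against 4 can reach 0.0286 at the lowest. The difference was -0.62 on slide 1 and -0.04 on slide 2, and -0.19 without occlusion 1, so it rested mainly on the rats of slide 1. It was -0.29 without control 3, and -0.27 with an unadjusted p of 0.0873 (limma) when the background model was fitted on all spots.

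Jund, a broadly expressed Jun protein, had 2 probes whose starts lie 629 bases apart, and they did not move together. Probe A_42_P537443, the brighter, at chr16:19239702-19239761 on the minus strand in rn3, was at -0.09, -0.02, 0.68 and 0.30 in occlusion 1 to 4 and at 0.40, -0.001, -0.29 and -0.25 in control 1 to 4. Probe A_43_P15517, at chr16:19240331-19240390 on the same strand, was at -0.37, -0.20, -0.51 and -0.25 in occlusion 1 to 4 and at -0.06, -0.11, -0.47 and -0.27 in control 1 to 4. Occlusion 3 was the highest rat by the first probe and the lowest by the second, and control 3 was low by both. With the background model fitted on all spots, occlusion 3 was at -0.21 on the second probe and control 3, at -0.47, was the lowest. Over the 8 animals their Pearson correlation was -0.0006, with a Spearman rho of 0.24. The differences between groups were of opposite sign, at 0.25 (SE 0.20) and -0.10 (SE 0.11), each with an adjusted p of 0.976 (limma). Without control 3 they were 0.17 and -0.19, and the first was 0.10 without occlusion 3. The second was 0.09 on slide 1 and -0.30 on slide 2, and -0.01 with the background model fitted on all spots. No direction can be given for Jund from these probes, and which transcript ends each one reads was not tested.

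The 250 bases before the annotated start of Junb and Jund are shown because Junb came closest to a difference and Jund was measured with disagreeing probes. They come from RefSeq (GRCr8), which is a later build than that of the array. Both are printed 5′ to 3′ on the gene's strand, with matches to the core of the cyclic AMP response element in capitals (TGACG, or CGTCA on the other strand).
Junb, chr19:40080876-40081125, plus strand: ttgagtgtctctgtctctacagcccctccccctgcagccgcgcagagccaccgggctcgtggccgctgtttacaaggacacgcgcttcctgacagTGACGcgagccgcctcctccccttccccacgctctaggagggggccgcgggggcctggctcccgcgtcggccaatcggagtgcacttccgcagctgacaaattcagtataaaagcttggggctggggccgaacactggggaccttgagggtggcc
Jund, chr16:18769772-18770021, minus strand: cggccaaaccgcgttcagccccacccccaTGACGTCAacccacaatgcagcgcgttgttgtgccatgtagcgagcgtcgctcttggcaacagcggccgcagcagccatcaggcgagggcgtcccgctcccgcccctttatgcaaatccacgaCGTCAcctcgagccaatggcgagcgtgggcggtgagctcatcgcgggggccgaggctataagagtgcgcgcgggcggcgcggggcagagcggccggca
The Jund sequence holds the full element TGACGTCA from -221 to -214 before the start and a further CGTCA from -98 to -94, and the Junb sequence holds TGACG from -155 to -151 and TATAAA from -49 to -44. Read on both strands, 1.59% of 33469 rat promoters of this length hold TGACGTCA, 18.2% hold TGACG, which is part of it, and 12.9% hold TATAAA. The AP-1 site TGANTCA (6.34% of promoters), the serum response element (1.5%) and the EGR site GCGGGGGCG (2.45%) had no match in either sequence. Of the other members, Fosb, Fosl1 and Fosl2 were in the table too, with TGACG in Fosl1 and the EGR site in Fosl2, and Fos, Jun and Atf3 are named only.

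Atf3, a stress-induced factor that pairs with Jun proteins and often represses its targets, was at -0.14, 0.25, 0.86 and -0.05 in occlusion 1 to 4 and at 0.47, 0.04, -0.63 and 0.35 in control 1 to 4. Occlusion 3 was the highest and control 3 the lowest of all rats, a 2.82-fold range. The means of 0.23 ± 0.45 and 0.05 ± 0.49 (SD, n = 4 each) differed by 0.18, with a 95% interval of -0.45 to 0.81 (adjusted p = 0.976, limma). The difference was -0.05 without control 3 and -0.03 without occlusion 3. Occlusion 3 was also the highest rat for Fos, Fosl1 and the brighter Jund probe, that is, for 4 of the 9 probes, and it was the highest for 16.9% of all probes. For Fos and the brighter Jund probe this also held with the background model fitted on all spots and on the scanner's ratios. For Atf3 it did not hold with the model on all spots, where occlusion 3 was at 0.45 and control 1 at 0.46. For Fosl1 it held in neither. The mean over 10 markers of choroid plexus and ependyma was 1.22 in this rat, against -1.35 to -0.26 in the others, and 7 of the 10 were highest there. Their part in the values of these 4 probes was not tested.

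Over all 8 rats, Fos and Atf3 had the highest correlation among the 28 pairs of members. Their Pearson r was 0.90 (exact permutation p = 0.000794, adjusted over the 28 pairs 0.0222) and Spearman's rho 0.95 (exact permutation p = 0.00114, adjusted 0.0319). Over the 7 rats without control 3, r was 0.82 (exact permutation p = 0.0230, adjusted 0.322) and rho 0.93 (exact permutation p = 0.00675, adjusted 0.189). The adjusted call was not kept there, but 7 rats also give less power than 8. Leaving out another rat was not tested for this pair. Without the 2 rats farthest from the median of Fos, r was 0.85 over 6 rats. The ratios of 1 animal share an array and the pool, and 1.31% of 12324 named genes correlated with Fos more closely than Atf3 did. Without control 3 that share was 1.17%. Fosb and Jun had r = 0.86 over 8 rats (exact permutation p = 0.00749, adjusted 0.105), which became 0.46 without the 2 rats farthest from the median of Fosb. Without control 3 its r was 0.87 (exact permutation p = 0.0111, adjusted 0.311), above that of Fos and Atf3. Over the 28 pairs the median r was 0.11, with 18 above 0, and without control 3 it was 0.28, with 23 above 0.

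**Figure D4:**
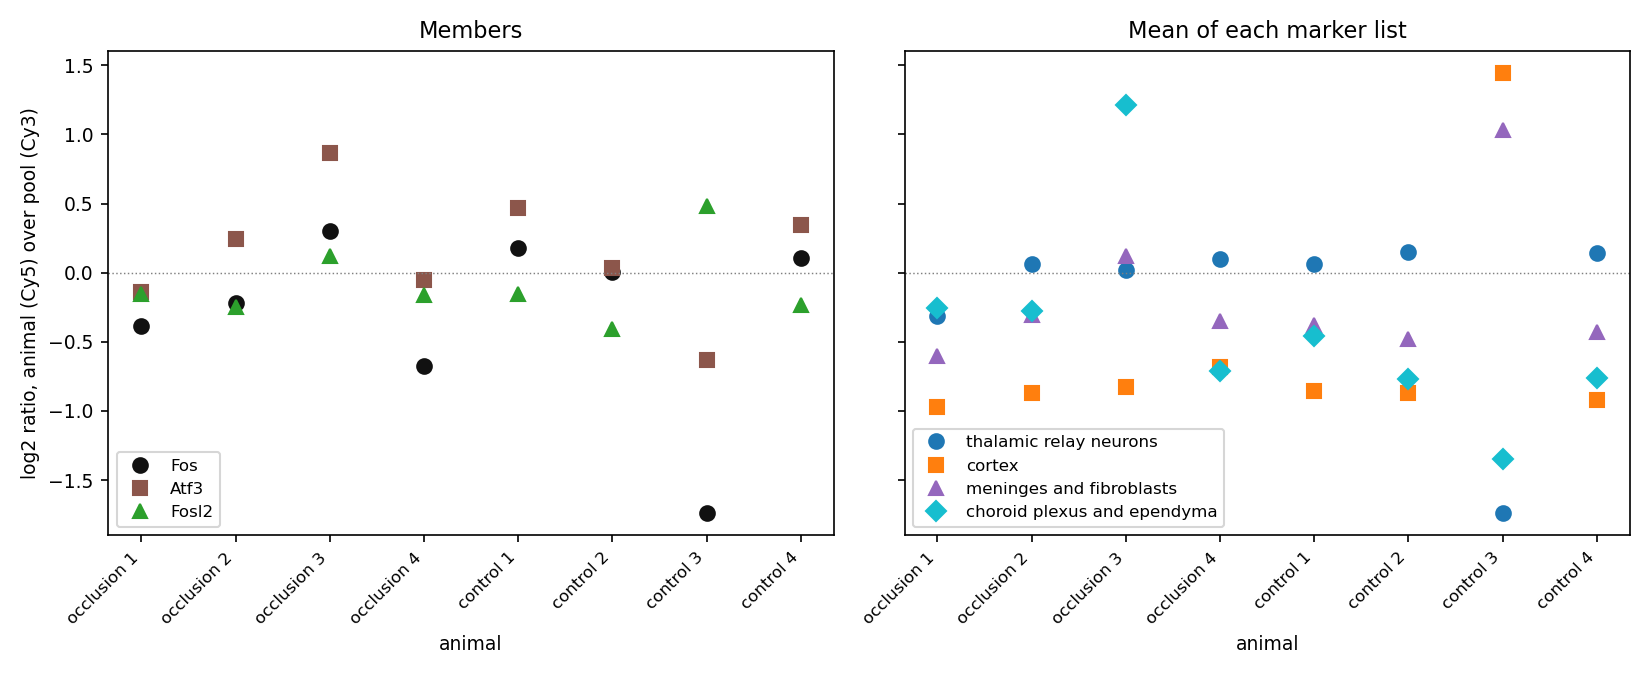
The left panel gives the log2 ratio of Fos, Atf3 and Fosl2 and the right panel the mean of 4 marker lists in the same 8 animals (horizontal axes), on 1 vertical scale. Control 3 is lowest for Fos, Atf3 and relay markers and highest for Fosl2, cortex and meninges markers, and occlusion 3 is highest for Atf3 and for choroid plexus markers.

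The genes whose ratios followed each member most closely over the 8 rats were named from the same 12324 genes, as a description without a test. For Fos they were Fam20c (r = 0.98), Msantd5 (0.97) and Camk2d (0.97), all of them below 0 in control 3, where Fam20c was at -1.04. For Atf3 they were Snapc1 (0.99), Sec22a (0.97) and Chtf18 (0.97), and for Fosl2 they were P4ha2, Jph3 and Ogn (0.97 each), with Ogn, a matrix protein of the meninges list, at 1.46 in control 3. Fosb was followed by Atp6v1g3 (0.94), Zcrb1 (0.94) and Naaladl1 (0.93), and Fosl1 by Uap1l1 (0.98), Naa25 (0.95) and Klc2 (0.93). Jun was followed by Dcaf12l2 (0.97), Strn (0.94) and Fam241b (0.94), Junb by Cenpt (0.98), Psenen (0.97) and Kcnk4 (0.97), and the brighter Jund probe by Tmed9, Ids and Nme1 (0.98 each). No member was among the 3 genes closest to another.

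Genes around AP-1 were examined as 5 lists, with 1 probe per gene, and 0 of their genes passed an adjusted p of 0.05 (limma), as for all 26996 genes tested. Of all genes, 3.10% had an unadjusted p under 0.05, 49.0% had a lower mean in occluded rats and the median difference was 0.003. Among the other bZIP factors that can pair with Fos or Jun, 7 of 16 tested were higher and 9 lower, with a median of -0.0054 that was 0.0035 without control 3. The smallest p belonged to Atf2, a partner of Jun, with a difference of 0.26 (SE 0.15), and Mafk, a small Maf protein, with -0.14 (SE 0.09), each at an adjusted p of 0.976 (limma). Without control 3 they were 0.27 and -0.10. Among the factors that act upstream of Fos and Jun, 7 of 13 were higher and 6 lower, with a median of 0.0085 that was 0.01 without control 3. Srf, which binds the serum response element, differed by -0.30 (SE 0.17), of which -0.12 remained without control 3, and Crebbp, a coactivator of CREB, by 0.11 (SE 0.09), or 0.12 without control 3.

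Among the MAP kinases that act on AP-1, 8 of 19 were higher and 11 lower, with a median of -0.04 that was -0.01 without control 3 and 0.02 on slide 1. Mapk3, which encodes ERK1, was at -0.28, -0.30, -0.30 and -0.25 in occluded rats and at -0.12, -0.20, -0.14 and -0.03 in controls. All 4 occluded rats lay below all 4 controls, with a difference of -0.16 (SE 0.07; adjusted p = 0.976, limma), and it was 1 of the 2.45% of genes whose groups did not overlap. Map2k7, which activates JNK, differed by 0.14 (SE 0.09). Without control 3 the differences were -0.17 and 0.13. Among known AP-1 target genes, 7 of 16 were higher and 9 lower, with a median of -0.02 that was 0.08 without control 3. Spp1, which encodes osteopontin, had a difference of 1.64 (SE 0.84; adjusted p = 0.976, limma), with occlusion 1 at 2.65 and the other 7 rats between -2.64 and -1.08, and Penk, the enkephalin precursor, one of 0.30 (SE 0.16). Without control 3 these were 1.40 and 0.46.

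Among 26 tested activity-induced genes outside AP-1, 10 were higher and 16 lower in occluded rats, with a median of -0.07 that was 0.03 without control 3. Egr1, an immediate early zinc finger factor, was at -0.60, -0.40, 0.03 and 0.18 in occluded rats and at -0.004, 0.28, 0.83 and 0.05 in controls. Its groups overlapped, and the difference of -0.49 (SE 0.22; adjusted p = 0.976, limma) was -0.31 without control 3. Gadd45b, a stress and activity gene, lay lower in all 4 occluded rats, at -0.11 to -0.01, than in all 4 controls, at 0.01 to 0.64. It was the only gene of this list whose groups did not overlap, against 2.45% of all genes. Its difference of -0.34 (SE 0.13, adjusted p = 0.976, limma) was -0.21 without control 3, the highest control. The mean of this list was 0.33 in control 3 and -0.18 to 0.07 in the other rats, and 12 of the 26 genes were highest and 5 lowest in that animal. Fos and Atf3 were at their lowest there, whereas Fosl2 and Junb were at their highest. Over all probes, control 3 was the highest rat for 22.9% and the lowest for 22.5%.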

How the data were processed

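For each of 8 animals the authors deposited 1 scanner file with linear spot intensity, local background and 0 or 1 quality marks for both dyes. Per the file headers, Agilent Feature Extraction 9.5.1.1 produced them, and it also gave a log10 ratio of Cy5 over Cy3, which the deposited value table repeats. Dyes per the labels set the direction of every ratio, and no dyes were swapped.

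Normexp (offset 50) and loess within arrays were applied (limma 3.58.1, R 4.3.3), with control and outlier spots at weight 0. The normexp model was fitted without spots whose local background the scanner software marked as an outlier. A first run had fitted it on all spots, where a few spots with a local background of up to 44781 set the model's background mean to -568 in Cy5 of occlusion 3, against 2.3 without them. The change was made after the members' values of that run had been seen. It moved the unadjusted p of Junb from 0.0873 to 0.0516 and ended the separation of the groups for Fosl1 (limma), and no probe passed the adjusted threshold in either.

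Repeated spots were averaged. A probe was tested if Cy5 was well above background on 4 or more of 8 arrays and each group had 2 or more values. Tests ran with limma (lmFit, eBayes, two-sided) and Benjamini-Hochberg adjustment over all 31690. A gene with several probes was represented by the brightest. Of 41012 probes, 10726 were named through a RefSeq table by accession, 5515 by symbol and 3718 by synonym, and 21053 kept their array name. Differences within slides, blocks for slide or replicate number, array weights, and each animal left out were among the alternatives. The model was tested on simulated data. The members, gene lists and tests were chosen with earlier results of these data known. All members are named, with the 2 genes of smallest p per list and the 3 genes closest to each member. Replicate numbers did not pair the animals. Precision is limited by 4 animals per group. Figures were drawn with matplotlib 3.10.9.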

Additional observations from a re-analysis of the deposited data

Results flagged for a closer look

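In groups of 4 rats, an extreme value was noted where its gap to the nearest other rat exceeded 0.829 of the group's range (Dixon's 95% value). Of 48 combinations of member probe or list mean and group, 7 did so, and 6 of the 7 were in control 3. Chance gives about 1 in 20, or 2.4, for independent combinations. These share the same rats and arrays and are not independent, so 7 against 2.4 does not measure an excess over chance. Fos in control 3 was at -1.74, with the next control at 0.01. In the same rat the list means stood apart for thalamic relay markers at -1.74, cortical markers at 1.45, meninges and fibroblast markers at 1.03, AP-1 target genes at 0.23 and activity-induced genes outside AP-1 at 0.33. The remaining one was the mean of AP-1 target genes in occlusion 1, at 0.15 against -0.17 in the next occluded rat. That mean includes Spp1, which reached 2.65 in this rat, and its next highest value was -1.08, in occlusion 2. Th, a gene of the same list, also had its highest value in occlusion 1, at 1.46 against -1.07 to 0.04 in the other rats. Cdk5, of that list too, had its lowest value there, at -0.53. Whether the mean would stand apart without Spp1 was not tested, so the flag does not show a rise of the whole list.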

How the results depend on the processing

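With 4 rats per group, the 95% intervals of the 9 probes were wide, and several signs were not settled. No probe of the array passed the adjusted threshold under any alternative run (limma), including a background model fitted on all spots, which was added after the data were seen. The count of probes with an unadjusted p under 0.05 was 975, was 1484 with array weights, and ran from 714 without occlusion 1 to 1571 without control 1 when 1 rat was left out. Same-numbered rats lay on different slides and their deviations correlated at -0.16, 0.09, -0.14 and 0.05, so the numbers name rats only. With the replicate number as a block, 0 probes passed and 898 had an unadjusted p under 0.05, and it changed no other call.

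Junb kept a lower mean in occluded rats in all 21 alternatives, from -0.62 to -0.04, with a lowest adjusted p of 0.865 (limma), and the brighter Jund probe a higher one in its 21, while the mean of both Jund probes differed by 0.07. Blocks for slide or replicate number, and another choice of tested probes, cannot move these differences, which stayed at -0.33 and 0.25. The other alternatives reuse the same rats, so the count of 21 is not independent support. The median of the MAP kinase list was -0.04 and ran from -0.08 to 0.02 over 21 alternatives. That of the AP-1 target genes ran from -0.07 to 0.095, and that of the activity-induced genes from -0.15 to 0.07. For the other bZIP factors it ran from -0.10 to 0.01 and for the upstream factors from -0.04 to 0.08. Each of these ranges crossed 0. The Fosb difference, at 0.0002, turned to -0.0079 without background correction, -0.0081 on the scanner's ratios, -0.0267 with median centring, -0.13 in Cy5 alone, -0.0029 on slide 2 and -0.0531 with all spots in the background model. Fosl1 turned to -0.0277 on the scanner's ratios and -0.0782 with all spots in the model. On slide 2, Fos turned to -0.28, Fosl2 to 0.26 and Jun to 0.0749, and on slide 1 the dimmer Jund probe turned to 0.087. With array weights, Fos turned to -0.27, Fosl2 to 0.0873, Jun to 0.0269 and Atf3 to -0.0057. When 1 rat was left out, Fos ran from -0.34 to 0.30, Fosb from -0.0472 to 0.0596, Fosl2 from -0.14 to 0.15, Jun from -0.21 to 0.0952 and Atf3 from -0.0524 to 0.31. The sign turned for Fos and Atf3 without control 3 or occlusion 3, for Fosl2 without control 3 or occlusion 2, and for Jun without occlusion 1. The cause was not tested.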

Other observations

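Besides the 9 probes, 2 probes for expressed sequence tags are described by the array design as similar to JUN-D and to Fra-2, the protein of Fosl2. They were picked with their values in view. The JUN-D tag (probe A_44_P458332) was at -0.12, 0.12, 0.03 and 0.09 in occlusion 1 to 4 and at 0.06, 0.10, 0.27 and 0.17 in control 1 to 4, a difference of -0.12 (SE 0.08; adjusted p = 0.976, limma) that was -0.08 without control 3. The Fra-2 tag (probe A_44_P547609) was at -0.0017, 0.20, 0.27 and 0.11 in occlusion 1 to 4 and at 0.17, 0.11, 0.27 and 0.16 in control 1 to 4, a difference of -0.03 (SE 0.08; adjusted p = 0.985, limma) that was 0.0012 without control 3. Both had their highest or second highest value in control 3, as Fosl2 did and as neither Jund probe did.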
